A study of Drosophila melanogaster with 8 samples.

Results

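The maltase genes of Drosophila melanogaster are the 8 genes of the Mal-A cluster, Mal-A1 to Mal-A8, and the 2 genes of the Mal-B cluster, Mal-B1 and Mal-B2. They were found by their symbols in the deposited gene tables of males and females, and transcript values were summed per FlyBase gene. All 10 symbols were found among 17655 genes, and all 10 passed the filter on low values. The series compared how diets change gene expression in adults of the wild-type strain Canton S, a fly model of diet-driven obesity. Each of 4 diets had 1 library of females and 1 library of males. The high-fat diet was given with quercetin glucoside (HFD+QG), a plant flavonol bound to glucose, with epigallocatechin gallate (HFD+EGCG), the main catechin of green tea, or alone (HFD), and a normal diet (ND) was the control. Flies ate their diet for 7 days, then spent 2 hours on standard food, and were 15 days old when RNA was taken. The samples were bodies without wings or legs, so gut, muscle, fat body and reproductive tissues share a library. The labels used here give neither the doses of the compounds, nor the sugar or fat content of the diets, nor how many flies made up a library. With 1 library per diet and sex, no spread between replicates could be measured. Depending on the model, p-values below rest on how far the sexes disagree or on how far the 3 high-fat libraries of a sex differ. That variation may be biological or technical.

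Maltases are alpha-glucosidases, enzymes that release glucose from the end of maltose, sucrose and short starch fragments. In flies they work in the gut after amylases have cut starch into maltose. Dietary sugar is known to repress amylases and maltases in the Drosophila midgut, and the TGF-beta ligand Dawdle (daw) and the zinc finger factor Sugarbabe (sug) are known parts of that response. The deposited annotation placed all 10 proteins in glycoside hydrolase family 13, the family of the amylases. The sugar that each fly maltase prefers is not described here.

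The Mal-A genes lie side by side on chromosome arm 2R at cytological band 44D1, over 24298 bases. Coordinates are those of the deposited tables, which equalled the BDGP6.54 annotation for all 10 genes. From left to right these are Mal-A1 (2R:8449664-8451904, minus strand), Mal-A2 (2R:8453627-8455782, plus), Mal-A3 (2R:8455909-8457892, minus) and Mal-A4 (2R:8458815-8460884, plus). They are followed by Mal-A5 (2R:8462753-8465092, plus), Mal-A6 (2R:8465158-8467595, plus), Mal-A7 (2R:8468646-8471663, minus) and Mal-A8 (2R:8471954-8473961, plus). Mal-B1 (2L:11847226-11849169, plus) and Mal-B2 (2L:11849958-11852881, plus) span 5656 bases of 2L. The genes have between 3 and 7 exons and between 1602 and 1890 coding bases. Mal-A1 overlaps the neighbouring gene Cyp4e1, and Mal-A8 overlaps mtt. Both Mal-B genes lie inside Pde1c, which is read from the opposite strand. The library kit kept the strand, but whether the strand was used in counting is not given in the sources used here. The maltases are paralogs, and how reads common to several of them were assigned is not given, so each gene's value carries that uncertainty.

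Expression is given as FPKM, rounded to whole numbers. FPKM counts sequenced fragments relative to a transcript's length and the size of its library, so levels can be set side by side between genes. The depth behind each value is unknown. A transcript listed at 0 can hold anything under 0.5 FPKM or an estimate that failed. FPKM summed over all genes was between 885956 and 1000513 per library. Genes above 0 numbered 9769 to 9844 in the 3 high-fat female libraries and 9473 in the ND female library, and 12758 to 12892 in the male libraries. The ND female library also stood apart in its summed egg genes (13 yolk, vitelline membrane and chorion genes), which were at 13321 FPKM in HFD+QG, 8401 in HFD+EGCG and 6623 in HFD females against 41562 in ND females. Egg genes summed to 11 to 14 FPKM in males. Whether the tables of the sexes were scaled together is not given in the sources used here.

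The maltases together summed to 248 FPKM in HFD+QG, 306 in HFD+EGCG and 376 in HFD females, against 630 in ND females. In males the sums were 532 FPKM in HFD+QG, 927 in HFD+EGCG and 483 in HFD libraries, against 2019 in the ND library. Both ND libraries were above every high-fat library of their sex. As a share of all FPKM in the library, the maltases made up 0.028% in HFD+QG, 0.034% in HFD+EGCG and 0.0419% in HFD females, against 0.0709% in ND females. The shares in males were 0.0574% in HFD+QG, 0.0956% in HFD+EGCG and 0.0483% in HFD, against 0.2151% in ND. In a whole-body library, fewer midgut cells and less maltase RNA per cell cannot be told apart.

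**Figure D1:**
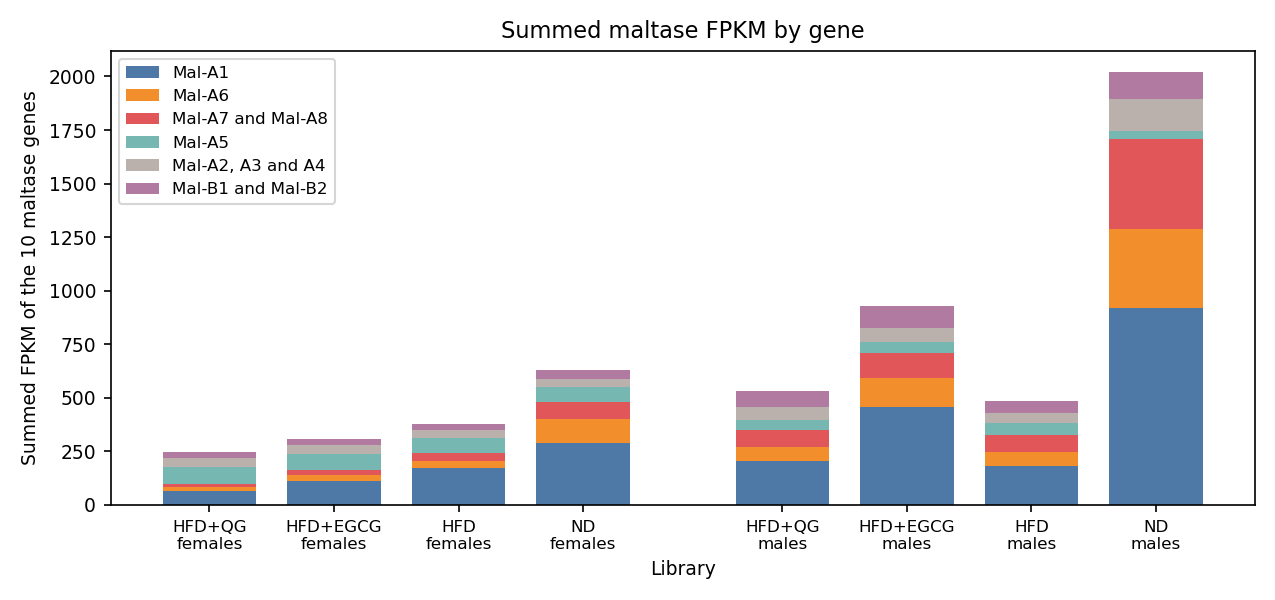
Summed FPKM of the 10 maltase genes in each of the 8 libraries (vertical axis, FPKM, starting at 0), stacked by gene or pair of genes, with females on the left and males on the right. The ND male library reaches 2019 FPKM, and in both sexes the ND bar is the tallest.

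Mal-A1 was the most abundant maltase in 7 of 8 libraries. It averaged 161 ± 95.9 FPKM in females and 441 ± 343 FPKM in males (SD over 4 diets, n = 4 libraries each, so that the SD includes the diet differences). In females it was followed by Mal-A5 (71.5 ± 4.2 FPKM) and Mal-A6 (47.8 ± 44.9 FPKM), and Mal-B1 (8.0 ± 8.1 FPKM) and Mal-A3 (7.5 ± 2.6 FPKM) were lowest. In males it was followed by Mal-A6 (159 ± 144 FPKM), Mal-A8 (87.5 ± 84.1 FPKM) and Mal-A7 (85.8 ± 80.0 FPKM), and Mal-A2 (26.5 ± 10.4 FPKM) and Mal-A3 (20.5 ± 10.4 FPKM) were lowest. Between these, females had Mal-A8, Mal-B2, Mal-A2, Mal-A7 and Mal-A4, in falling order between 22.8 and 13.5 FPKM. Males had Mal-A5, Mal-B2, Mal-B1 and Mal-A4 there, in falling order between 49.0 and 33.2 FPKM. No 2 neighbours in either order differed by more than the larger of their SDs. The exception to the first rank of Mal-A1 was the HFD+QG female library, in which Mal-A5 (76 FPKM) was above Mal-A1 (67 FPKM).

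**Figure D2:**
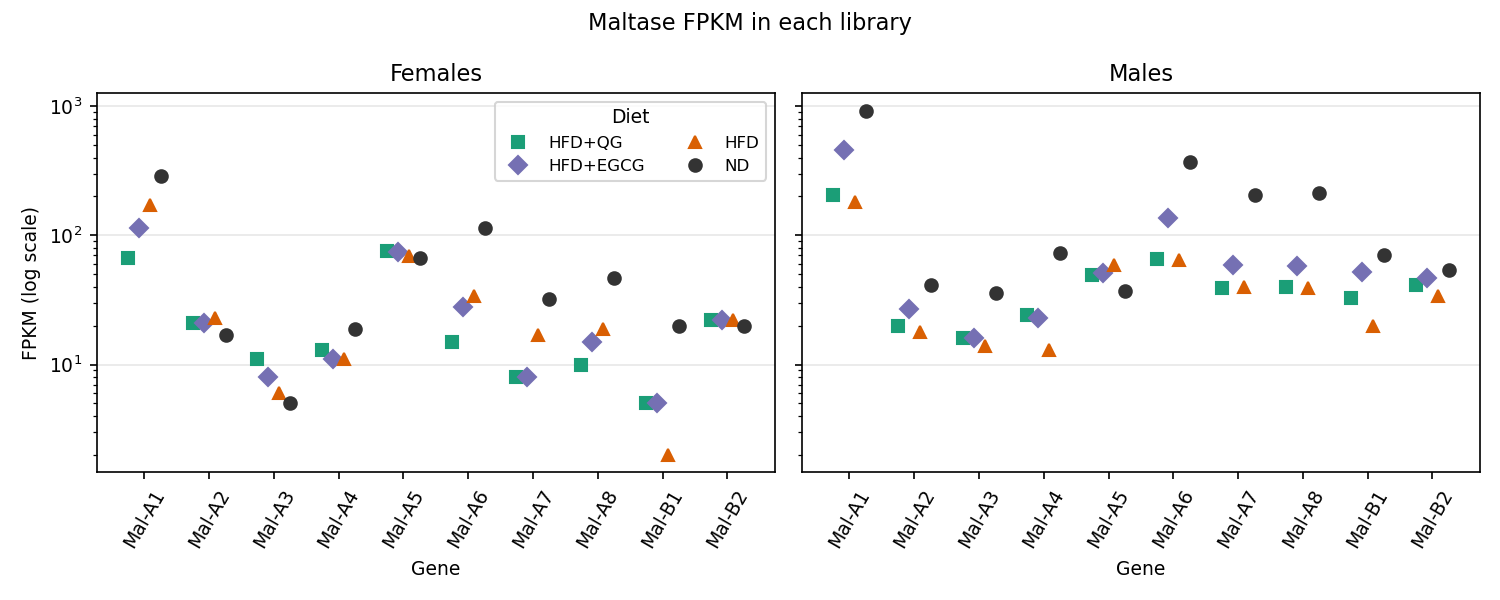
FPKM of each maltase gene (horizontal axis) in each library on a log scale (vertical axis), females in the left panel and males in the right, with 1 symbol per diet. For Mal-A1, Mal-A4, Mal-A6, Mal-A7, Mal-A8 and Mal-B1 the ND symbol is the highest in both panels, and for Mal-A5 it is the lowest in both.

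The question put to the diets was which maltases differed between the high-fat libraries and ND. Mal-A1, Mal-A4, Mal-A6, Mal-A7, Mal-A8 and Mal-B1 were lower in all 3 high-fat libraries than in ND in both sexes. Mal-A5 went the other way in both sexes. Mal-A2, Mal-A3 and Mal-B2 were lower in the high-fat libraries of males and higher in those of females. In females 6 of 10 maltases were thus below ND in all 3 high-fat libraries, against 49.9% of the 10254 genes described, so a share of that size was close to the background of that sex. In males 9 of 10 were below ND in all 3, against 21.2% of the 13304 genes described. The 4 maltases above ND in all 3 high-fat libraries of females compare with 31.1% of genes, and Mal-A5 as 1 of 10 in males with 26.8%. The 3 high-fat libraries of a sex are set against the same ND library, and these shares describe those libraries only.

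Mal-A1 was at 67 FPKM in HFD+QG, 114 in HFD+EGCG and 173 in HFD females, against 289 in ND females. In males it was at 204 FPKM in HFD+QG, 458 in HFD+EGCG and 182 in HFD, against 921 in ND. Every high-fat library was below the ND library of its sex, as for 49.9% of genes in females and 21.2% in males. The highest high-fat library was HFD in females and HFD+EGCG in males. Mal-A1 made up 27.0% of the maltase sum in HFD+QG, 37.3% in HFD+EGCG and 46.0% in HFD females, against 45.9% in ND females. In males the shares of Mal-A1 were 38.3% in HFD+QG, 49.4% in HFD+EGCG and 37.7% in HFD, against 45.6% in ND.

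Mal-A6 was at 15 FPKM in HFD+QG, 28 in HFD+EGCG and 34 in HFD females, against 114 in ND females. It was at 66 FPKM in HFD+QG, 136 in HFD+EGCG and 64 in HFD males, against 369 in ND males. In each sex every high-fat library was more than 2-fold below ND. Of its 2 transcripts, 1 carried nearly all of the signal, with the other at 0 to 3 FPKM in the high-fat libraries, 1 FPKM in ND females and 10 FPKM in ND males.

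Mal-A7 was at 8 FPKM in HFD+QG, 8 in HFD+EGCG and 17 in HFD females, against 32 in ND females. Male libraries had 39 FPKM in HFD+QG, 59 in HFD+EGCG and 40 in HFD, against 205 in ND. Both of its transcripts were lower in every high-fat library than in ND: the more abundant was at 6 to 13 FPKM in high-fat and 25 in ND females, and at 21 to 36 FPKM in high-fat and 140 in ND males. The other was at 2 to 4 FPKM in high-fat and 7 in ND females, and at 14 to 23 FPKM in high-fat and 65 in ND males. The neighbouring Mal-A8 was at 10 FPKM in HFD+QG, 15 in HFD+EGCG and 19 in HFD females, against 47 in ND females. It was at 40 FPKM in HFD+QG, 58 in HFD+EGCG and 39 in HFD males, against 213 in ND males. Mal-A7 and Mal-A8 together made up 7.26% of the maltase sum in HFD+QG, 7.52% in HFD+EGCG and 9.57% in HFD females, against 12.5% in ND females. Their joint share in males was 14.8% in HFD+QG, 12.6% in HFD+EGCG and 16.4% in HFD, against 20.7% in ND.

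Mal-A4 was at 13 FPKM in HFD+QG, 11 in HFD+EGCG and 11 in HFD females, against 19 in ND females. Male values were 24 FPKM in HFD+QG, 23 in HFD+EGCG and 13 in HFD, against 73 in ND. Its high-fat values were below ND in both sexes, with the wider gap in males. Mal-B1 was at 5 FPKM in HFD+QG, 5 in HFD+EGCG and 2 in HFD females, against 20 in ND females. It was at 33 FPKM in HFD+QG, 52 in HFD+EGCG and 20 in HFD males, against 70 in ND males. HFD alone gave the lowest Mal-B1 value in each sex.

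Mal-A5 was at 76 FPKM in HFD+QG, 74 in HFD+EGCG and 69 in HFD females, against 67 in ND females. Male libraries had 49 FPKM in HFD+QG, 51 in HFD+EGCG and 59 in HFD, against 37 in ND. Every high-fat library was above the ND library of its sex, as for 31.1% of genes in females and 26.8% in males. In females the whole range was narrow. All of the Mal-A5 signal came from 1 of 3 listed transcripts, and the other transcripts were listed at 0 in every library. Its share of the maltase sum was 30.6% in HFD+QG, 24.2% in HFD+EGCG and 18.4% in HFD females, against 10.6% in ND females. The share in males was 9.21% in HFD+QG, 5.50% in HFD+EGCG and 12.2% in HFD, against 1.83% in ND. Mal-A5 ends 65 bases before Mal-A6 on the same strand, and Mal-A6 lay lower in the high-fat libraries of both sexes.

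Mal-A2 was at 21 FPKM in HFD+QG, 21 in HFD+EGCG and 23 in HFD females, against 17 in ND females. In males it was at 20 FPKM in HFD+QG, 27 in HFD+EGCG and 18 in HFD, against 41 in ND. Its order between high-fat and ND was thus opposite in the sexes. Mal-A3 was at 11 FPKM in HFD+QG, 8 in HFD+EGCG and 6 in HFD females, against 5 in ND females, and at 16, 16 and 14 FPKM in those diets in males, against 36 in ND males. Mal-B2 was at 22 FPKM in HFD+QG, 22 in HFD+EGCG and 22 in HFD females, against 20 in ND females. It was at 41 FPKM in HFD+QG, 47 in HFD+EGCG and 34 in HFD males, against 54 in ND males. The female Mal-B2 values were nearly flat. One of its 3 transcripts was listed at 5 FPKM in HFD+EGCG and 7 FPKM in HFD females and at 0 in the other 6 libraries, so the split of Mal-B2 between transcripts varied more than its sum.

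**Figure D3:**
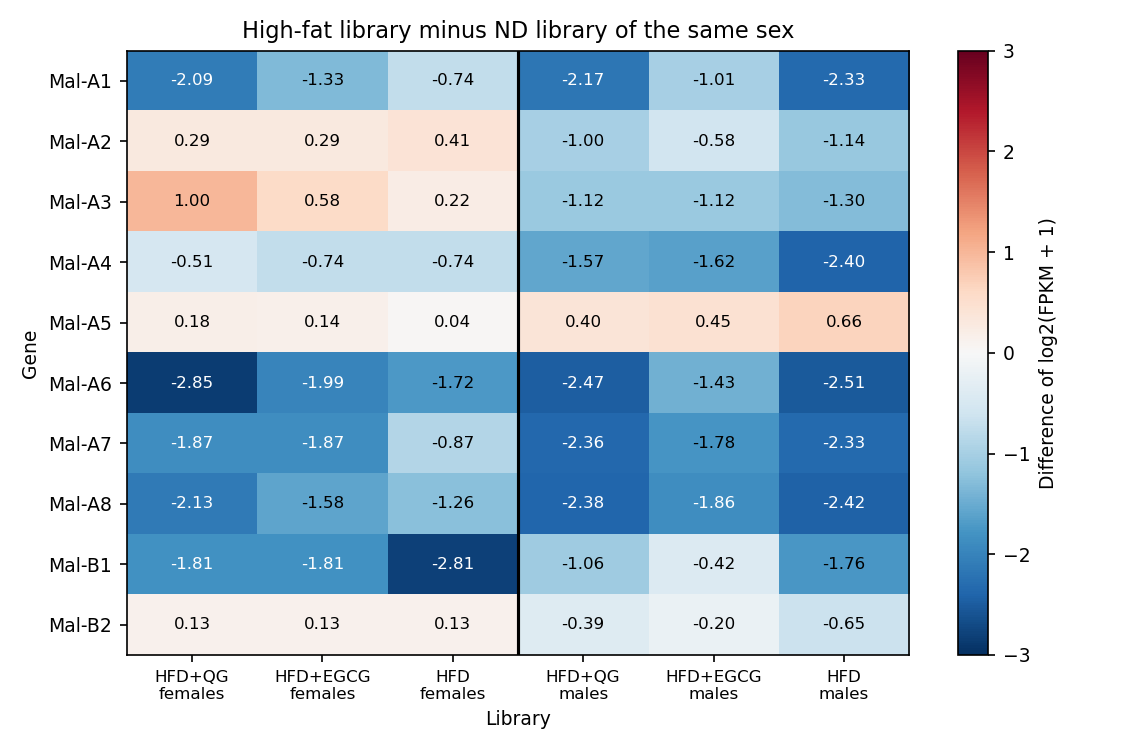
Difference of log2(FPKM + 1) between each high-fat library and the ND library of its sex (colour scale and printed values), with the 10 maltases down the page and the 3 high-fat diets of females and then of males across it. Cells of Mal-A6, Mal-A7 and Mal-A8 are below 0 in all 6 columns, and cells of Mal-A5 are above 0 in all 6.

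Between single libraries no test is possible, and genes at least 2-fold apart on the scale of log2(FPKM + 1) were counted instead. A pseudocount of 1 understates the change of low genes, and a rounding step can decide a call that lies exactly at 2-fold. Against ND, such calls were Mal-A3 in HFD+QG females (11 against 5 FPKM) and Mal-A2 in HFD+QG males (20 against 41 FPKM). In females, 5 maltases were at least 2-fold lower in HFD+QG than in ND (Mal-A1, Mal-A6, Mal-A7, Mal-A8 and Mal-B1) and 1 was at least 2-fold higher (Mal-A3, at 11 against 5 FPKM), against 4.17% and 12.6% of all genes described in females. The same 5 were at least 2-fold lower in HFD+EGCG than in ND females, against 4.8% of genes. In HFD females 3 were (Mal-A6, Mal-A8 and Mal-B1), against 7.19% of genes. In males, 8 maltases were at least 2-fold lower in HFD+QG than in ND (all but Mal-A5 and Mal-B2), against 3.8% of genes. HFD+EGCG males had 6 (Mal-A1, Mal-A3, Mal-A4, Mal-A6, Mal-A7 and Mal-A8), against 3.95% of genes, and HFD males had 8 (all but Mal-A5 and Mal-B2), against 3.56%. The median maltase difference from ND was -1.16 in HFD+QG, -1.04 in HFD+EGCG and -0.74 in HFD females, where the median of all genes was -0.14 in each. In males the medians were -1.34 in HFD+QG, -1.06 in HFD+EGCG and -2.04 in HFD, where the median of all genes was 0.

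Across the sexes, limma was fitted to the 9848 genes that reached 1 FPKM in some library of both sexes. In the additive model of sex and diet, in which disagreement between the sexes counts as error, no maltase passed a Benjamini-Hochberg adjusted p of 0.05 in HFD against ND. The lowest adjusted p of a maltase was 0.29, and 0% of all genes passed. At an unadjusted p under 0.05 there were 6 maltases, all lower (Mal-A1, Mal-A4, Mal-A6, Mal-A7, Mal-A8 and Mal-B1), against 13.6% of genes. In log2 units, Mal-B1 differed by -2.28 (SE 0.34), Mal-A6 by -2.11 (SE 0.33), Mal-A8 by -1.84 (SE 0.29), Mal-A7 by -1.60 (SE 0.39), Mal-A4 by -1.57 (SE 0.39) and Mal-A1 by -1.53 (SE 0.47). Differences of the remaining genes were -0.54 for Mal-A3, -0.36 for Mal-A2, -0.26 for Mal-B2 and 0.35 for Mal-A5. Without the ND male library, which leaves 1 ND library, Mal-A3, Mal-A2 and Mal-B2 were at 0.35, 0.26 and 0.01. Without the HFD male library, Mal-A2 was at 0.05. The median maltase difference was -1.55, that of all genes -0.03. HFD+QG and HFD+EGCG against ND gave the same count of 0 maltases passing, with 0% of genes in both. At an unadjusted p under 0.05 there were 6 maltases for HFD+QG (9.52% of genes) and 5 for HFD+EGCG (11.8% of genes), all lower, with medians of -1.24 and -1.14.

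In a second limma model HFD+QG, HFD+EGCG and HFD were taken as 3 libraries of 1 high-fat group in each sex, so that any effect of the compounds counted as error. Here 5 maltases fell and 1 rose in the high-fat libraries, relative to ND, as the mean of the sexes. Those that fell were Mal-A6 (log2 difference -2.16, SE 0.44, adjusted p = 0.0215), Mal-A8 (-1.94, SE 0.28, adjusted p = 0.00904), Mal-A7 (-1.85, SE 0.34, adjusted p = 0.0172), Mal-B1 (-1.61, SE 0.46, adjusted p = 0.0497) and Mal-A4 (-1.26, SE 0.25, adjusted p = 0.0204). Mal-A5 rose (0.31, SE 0.08, adjusted p = 0.042). Mal-A1 had a difference of -1.61 with a wide SE of 0.52 and did not pass (adjusted p = 0.0649). Mal-A2 (-0.29), Mal-A3 (-0.29) and Mal-B2 (-0.14) did not pass either. Of all genes, 17.1% passed lower and 17.8% passed higher, and the median maltase difference was -1.44 against -0.04 for all genes. Each sex has a single ND library, so that diet and whatever else set that library apart cannot be told apart, and the spread on ND is assumed to equal that on high-fat food. The number of maltases passing was 2 without the HFD+EGCG female library, 3 without the HFD female library and 3 without the HFD+QG male library, and between 4 and 7 without each of the other high-fat libraries. Mal-A7 and Mal-A8 passed without each high-fat library in turn, but the calls of Mal-A5 and Mal-B1 were each lost in 5 of these 6 fits, and those of Mal-A4 and Mal-A6 in 2 of 6 each. Mal-B1 did not pass with a pseudocount of 0.5, without a filter, with the highest transcript only or without a trended prior (limma adjusted p between 0.0503 and 0.0701), nor did Mal-A5 without a filter or with the highest transcript only (0.0571 and 0.0505). Mal-A1 passed at an FPKM of at least 10 (adjusted p = 0.0293) and with a common FPKM sum (0.0354).

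Within the same model, 4 maltases fell in females (Mal-A6, Mal-A7, Mal-A8 and Mal-B1), against 34.2% of genes, a share near the background. In males 2 fell (Mal-A4, adjusted p = 0.0463, and Mal-A8, adjusted p = 0.0409, limma), against 2.62% of genes. Without the HFD+EGCG female library both counts were 0, and without the HFD+QG male library they were 1 in females and 0 in males. The female count was also 1 without the HFD+QG female library, and the male count was 1 without the HFD female, HFD male or HFD+EGCG male library. The difference between the sexes was tested by the interaction term, female minus male. It was above 0 and passed for Mal-A3 (1.78, SE 0.42, adjusted p = 0.0261) and Mal-A2 (1.24, SE 0.31, adjusted p = 0.0315), against 16.8% of all genes higher, a share near the background, and it did not pass for Mal-B2 (0.54, SE 0.24, adjusted p = 0.127). That count of 2 was 0 without the HFD+EGCG female or the HFD+QG male library and 1 without the HFD female or the HFD+QG female library. Without the HFD male or the HFD+EGCG male library Mal-A3 alone of these did not pass (adjusted p = 0.0625 and 0.0554, limma).

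**Figure D4:**
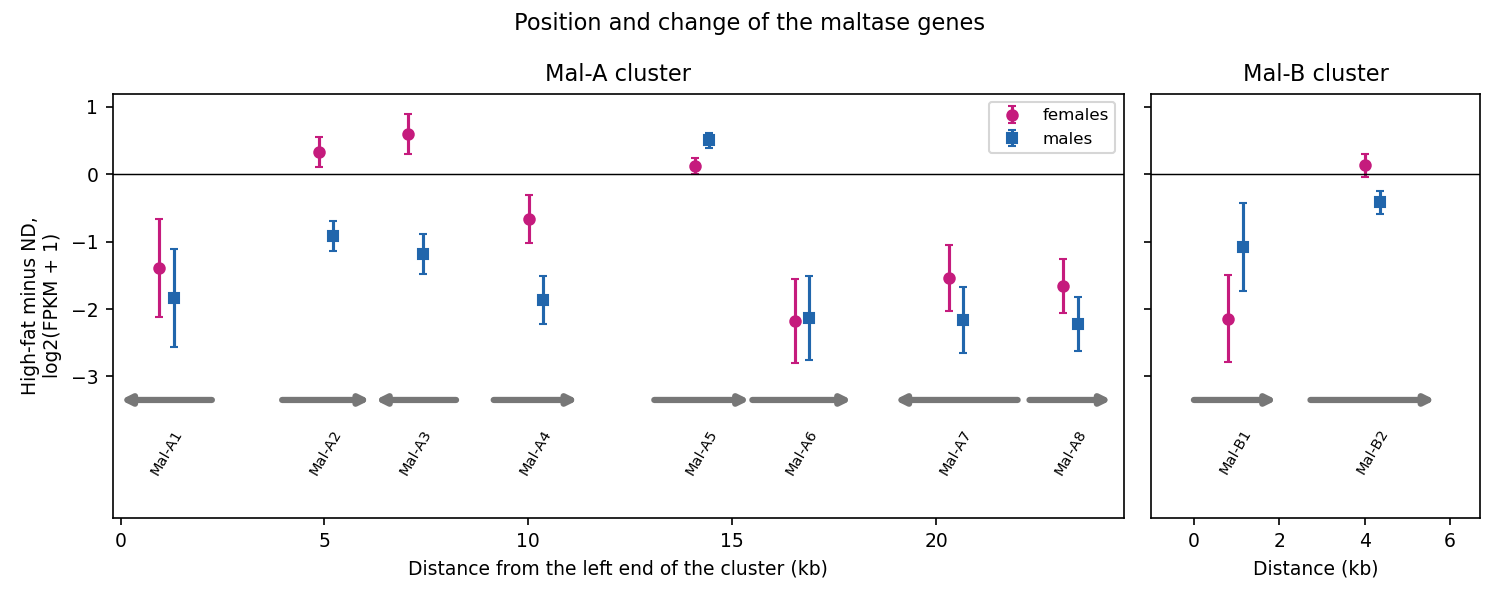
Mean difference of log2(FPKM + 1) between the 3 high-fat libraries and the ND library of each sex (vertical axis; circles for females, squares for males, bars for the SE of the limma fit), placed at each gene's distance from the left end of its cluster in kb. Arrows show each gene's extent and strand. Mal-A2 and Mal-A3 are above 0 in females and below it in males, and Mal-A5 is above 0 in both between the lower Mal-A4 and Mal-A6.

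As the mean of the sexes, no gene tested beside the clusters passed as lower in the second limma model, where 17.1% of all genes did. Those that passed as higher are to be read against 17.8% of all genes. Among those tested next to Mal-A, Cyp4e2 (0.21), Cyp4e1 (0.33) and CG12780 (0.15) did not pass, and Cyp4ad1 (0.48, adjusted p = 0.0241, limma) and Cyp6a13 (0.30, adjusted p = 0.0296) rose. Cyp4ad1, Cyp4e1, Cyp4e2 and Cyp6a13 encode cytochrome P450 enzymes. Around Mal-B, Pde1c, a cyclic nucleotide phosphodiesterase gene that contains the cluster on the other strand, rose (0.69, adjusted p = 0.00556, limma), as did CG42486 (0.53, adjusted p = 0.0209). CG14933 (0.13), CG44008 (0.29) and CG42751 (-0.36) did not pass. Pde1c was at 4 to 5 FPKM in high-fat females against 1 in ND females, and at 10 FPKM in each high-fat male library against 11 in ND males. In males every high-fat library was also below ND for CG12780 (61 to 85 against 87 FPKM), CG14933 (148 to 171 against 200) and CG42751 (3 to 4 against 9). The reverse held in males for Cyp4e2 (82 to 106 against 81 FPKM) and CG42486 (104 to 120 against 95). For the other genes tested here, the male high-fat values lay on both sides of ND.

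Against HFD alone, the addition of QG or EGCG was asked of the same genes. By the additive limma model no maltase passed for HFD+QG (0% of all genes passed) or for HFD+EGCG (0% of all genes passed). At an unadjusted p under 0.05 there were 0 maltases for HFD+QG (1.09% of genes) and 1 for HFD+EGCG (Mal-B1, 1.04% of genes). Mal-B1 was at 5 FPKM in HFD+EGCG against 2 in HFD females and at 52 FPKM in HFD+EGCG against 20 in HFD males, a mean log2 difference of 1.17 (SE 0.34, limma adjusted p = 1). It was at 5 FPKM in HFD+QG against 2 in HFD females and at 33 FPKM in HFD+QG against 20 in HFD males, a mean of 0.85 (SE 0.34, limma adjusted p = 1). The median maltase difference was -0.03 for HFD+QG and 0.25 for HFD+EGCG.

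Within females, 3 maltases were at least 2-fold lower in HFD+QG than in HFD (Mal-A1, Mal-A6 and Mal-A7), against 2.73% of genes, and Mal-B1 was at least 2-fold higher, against 2.56%. In HFD+EGCG females 1 was at least 2-fold lower (Mal-A7, 2.89% of genes) and 1 higher (Mal-B1, 2.12%). At 5 against 2 FPKM a rounding step carries much of the Mal-B1 difference. Mal-A7, at 8 against 17 FPKM in both comparisons, lay exactly at the 2-fold limit, where a rounding step can decide the call. Within males, no maltase was 2-fold apart between HFD+QG and HFD, where 2.52% of genes were lower and 2.01% higher. In HFD+EGCG males none was at least 2-fold lower (3.01% of genes) and 3 were at least 2-fold higher than in HFD (Mal-A1, Mal-A6 and Mal-B1), against 2.07% of genes. In males 9 of 10 maltases had higher values in HFD+EGCG than in HFD, the exception being Mal-A5, with a median of 0.56, where 26.0% of all genes were above 0 and 49.8% below. For lists described below, the male medians of that comparison were 0.45 for midgut structure genes and 0.58 for amylases and alpha-glucosidases outside the clusters. The male median of midgut proteases and lipases was -0.12. In females 3 maltases were above, 5 below and 2 equal to HFD, with a median of -0.06. There 42.9% of all genes were above 0 and 33.8% below. The order of the 3 high-fat libraries for Mal-A1, Mal-A6 and Mal-A8 was HFD+QG, HFD+EGCG, HFD from low to high in females, and in males HFD+EGCG was the highest of the 3 for each.

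Maltase levels also differed between the sexes. In the additive limma model 8 of 10 maltases were lower in females than in males over the 4 diets and 1 was higher, against 27.3% and 39.6% of all genes. The values of the sexes come from separate tables. The female minus male difference was -2.55 for Mal-B1 (SE 0.24, adjusted p = 0.00109), -2.18 for Mal-A7 (SE 0.28, adjusted p = 0.00222), -1.73 for Mal-A8 (SE 0.21) and -1.72 for Mal-A6 (SE 0.24). It was -1.33 for Mal-A1, -1.29 for Mal-A3, -0.99 for Mal-A4 and -0.98 for Mal-B2, and each of these 8 genes was lower in females in all 4 diets. Mal-A5 was higher in females in all 4 diets (0.55, SE 0.12, adjusted p = 0.0108, limma). Mal-A2 did not pass (-0.29, adjusted p = 0.375), was lower in females in 2 of 4 diets, and had a difference of 0.02 without either ND library. The smallest sex differences of Mal-A1, Mal-A4, Mal-A6, Mal-A7 and Mal-A8 were on HFD: Mal-A1 was at 173 FPKM in females and 182 in males there. Without either HFD+EGCG library 5 maltases passed, and without each of the others between 6 and 8. The calls that were lost were those of Mal-A1, Mal-A3, Mal-A4 and Mal-A5. Without either ND library the difference of Mal-A4 was -0.69, and that of Mal-A3 was -0.84.

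How far the maltases moved together was described by Pearson's r over the 8 libraries, with each gene's log2(FPKM + 1) centred within each sex. Against the mean of the 10 maltases, which includes the gene itself, r was 0.98 for Mal-A8, 0.96 for Mal-A6, 0.95 for Mal-A7, 0.94 for Mal-A1 and 0.92 for Mal-A4. It was 0.78 for Mal-B1, 0.67 for Mal-A2, 0.66 for Mal-B2, 0.41 for Mal-A3 and -0.89 for Mal-A5. These points share their libraries, and the ND library of each sex lies far from the others. Among 5980 protein-coding genes outside the clusters that reached 10 FPKM in some library of both sexes, the 5 most like the mean maltase profile were CG34040 (r = 0.987), CG16965 (r = 0.986), Gip (r = 0.979), and the cytochrome P450 genes Cyp6d4 (r = 0.979) and Cyp309a1 (r = 0.976). CG34040 was at 0 FPKM in HFD+QG, 1 in HFD+EGCG and 1 in HFD females, against 11 in ND females, and at 4, 9 and 2 FPKM in those diets in males, against 62 in ND males. Gip had a small range, at 41 to 43 FPKM in high-fat and 62 in ND females, and at 38 to 45 FPKM in high-fat and 64 in ND males. The measure ranks likeness of shape and not of size.

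Other carbohydrate genes were read from fixed lists. Of the amylases and alpha-glucosidases outside the clusters, all 3 tested in both sexes fell in the high-fat libraries relative to ND in the second limma model. They were the alpha-glucosidase gene tobi (-3.12, SE 0.32, adjusted p = 0.00359) and the amylases Amy-p (-1.52, SE 0.20, adjusted p = 0.0071) and Amy-d (-1.15, SE 0.19, adjusted p = 0.0126). Amy-p and Amy-d are near-identical copies whose reads may have been split. Amy-p was at 418 FPKM in HFD+QG, 593 in HFD+EGCG and 516 in HFD females, against 1407 in ND females, and the male values were 375, 464 and 310 in those diets, against 1110 in ND. The maltase sum per FPKM of this list was 0.461 in HFD+QG, 0.393 in HFD+EGCG and 0.582 in HFD females against 0.331 in ND females, and 0.948, 1.37 and 0.942 in those diets of males against 1.23 in ND males. The ratio was higher in all 3 high-fat libraries of females than in ND, and in males 1 of 3 was higher. As the mean of the sexes, none of 5 lysosomal alpha-mannosidases passed, with an unadjusted p under 0.05 for 1 of them (LManIII), and 2 passed without the HFD male library. In females alone, LManI (0.84, limma adjusted p = 0.0313) and LManII (0.69, adjusted p = 0.0132) rose. LManIII fell in females (listed at 0 in the high-fat libraries against 3 FPKM in ND, adjusted p = 0.00662), where 22.6% of all genes passed higher and 34.2% lower. In males alone 0 of the 5 passed, with LManI at 7 to 11 FPKM in high-fat and 14 in ND, and LManII at 69 to 81 and 105. The sexes differed for LManI, LManII and LManIII (limma interaction, adjusted p = 0.0216, 0.0114 and 0.0129), where 16.8% of all genes passed higher and 25.9% lower. CD98hc, an amino acid transporter subunit with an amylase-like domain, fell in females (-0.25, limma adjusted p = 0.0192) and rose in males (0.29, adjusted p = 0.0496), where 5.65% of all genes passed higher, and the difference between the sexes passed (-0.55, adjusted p = 0.00863, where 25.9% of all genes passed lower).

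Of 8 trehalose and sugar transport genes tested, 4 fell and none rose as the mean of the sexes, against 17.1% of all genes lower and 17.8% higher. They were the sugar transporter genes Slc45-1 (-0.48), nebu (-0.40) and sut1 (-0.39), and Treh (-0.21), which encodes trehalase, the enzyme that splits the blood sugar trehalose. For Slc45-1 and Treh the sexes differed (limma interaction, adjusted p = 0.00803 and 0.00671). Slc45-1 was at 3 FPKM in each high-fat library and 3 in ND females, and at 5 to 6 FPKM in high-fat and 12 in ND males. Treh was at 89 to 93 FPKM in high-fat and 88 in ND females, and at 123 FPKM or less in high-fat and 165 in ND males. The sexes also differed for sut1 (adjusted p = 0.0496), which was at 28 to 32 FPKM in high-fat and 48 in ND females, and at 10 to 12 FPKM in high-fat and 12 in ND males. The sexes also differed for Tret1-1 (limma interaction 1.07, adjusted p = 0.00527) and Tps1 (0.73, adjusted p = 0.0227), where 16.8% of all genes passed higher. Tret1-1 was at 61 to 71 FPKM in high-fat and 38 in ND females. Its male values were 106 to 109 FPKM in high-fat and 134 in ND. In females alone Tret1-1 rose (0.75, limma adjusted p = 0.00346), against 22.6% of all genes. As the mean of the sexes, 2 of the 8 passed without the HFD+EGCG female library. Of 15 genes of sugar sensing and its regulators, 3 rose and 2 fell, shares near those of all genes (17.8% higher and 17.1% lower). Those that rose were sug (0.92, SE 0.11, adjusted p = 0.0056, limma), Akh (0.52, adjusted p = 0.0151), the hormone that mobilises stored fuel, and bigmax (0.36, adjusted p = 0.017), which encodes the partner of the sugar sensor Mondo. Mondo itself fell (-0.33, adjusted p = 0.0181), as did Med (-0.18, adjusted p = 0.0347), a Smad of TGF-beta signalling. The gene daw had a difference of 0.57 and did not pass (adjusted p = 0.0509). Akh rose in females (0.95, limma adjusted p = 0.00455) and had a difference of 0.08 in males (adjusted p = 0.741), and the sexes differed (adjusted p = 0.0195). The sexes also differed for sug (adjusted p = 0.0163, limma), with a difference of 1.49 in females (adjusted p = 0.00231) and 0.36 in males (adjusted p = 0.208). The gene sug was at 97 FPKM in HFD+QG, 129 in HFD+EGCG and 118 in HFD females against 40 in ND females, and at 88, 90 and 92 FPKM in those diets in males against 70 in ND males. No member of these lists passed in the additive limma model for HFD against ND.

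Markers of the tissues in the body were read beside the maltases. The 10 genes of midgut structure (such as Mex1, Myo31DF and mesh, which mark midgut enterocytes) summed to 634 FPKM in HFD+QG, 665 in HFD+EGCG and 898 in HFD females, against 477 in ND females. In males they summed to 367 in HFD+QG, 551 in HFD+EGCG and 388 in HFD, against 512 in ND. In females these markers were thus higher in the high-fat libraries, where the maltase sum was lower. As the mean of the sexes, none of the 10 passed in the second limma model (lowest adjusted p = 0.0972), and GATAe had an unadjusted p under 0.05. In females alone GATAe (0.79, limma adjusted p = 0.0203) and lab (1 to 2 FPKM in high-fat, listed at 0 in ND, adjusted p = 0.0378) rose, 2 of 10 against 22.6% of all genes. The difference between the sexes passed for GATAe (0.88, adjusted p = 0.0486) and nub (2.02, adjusted p = 0.0348), against 16.8% of all genes. The defining markers were above 0 in every library apart from lab, which was listed at 0 in ND females. The ratio of maltase to midgut structure FPKM was 0.391 in HFD+QG, 0.460 in HFD+EGCG and 0.419 in HFD females, against 1.32 in ND females. In males it was 1.45 in HFD+QG, 1.68 in HFD+EGCG and 1.24 in HFD, against 3.94 in ND. In each sex every high-fat ratio was below the ND ratio. The ratio was added after the data were seen, and the part of midgut cell number in it was not tested. In females the muscle and Malpighian tubule sums were also higher in the high-fat libraries than in ND. Between the sexes, 2 of 10 midgut structure genes were higher in females (Myo31DF and Myo61F) and none lower, against 39.6% and 27.3% of all genes, with a median of 0.52.

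**Figure D5:**
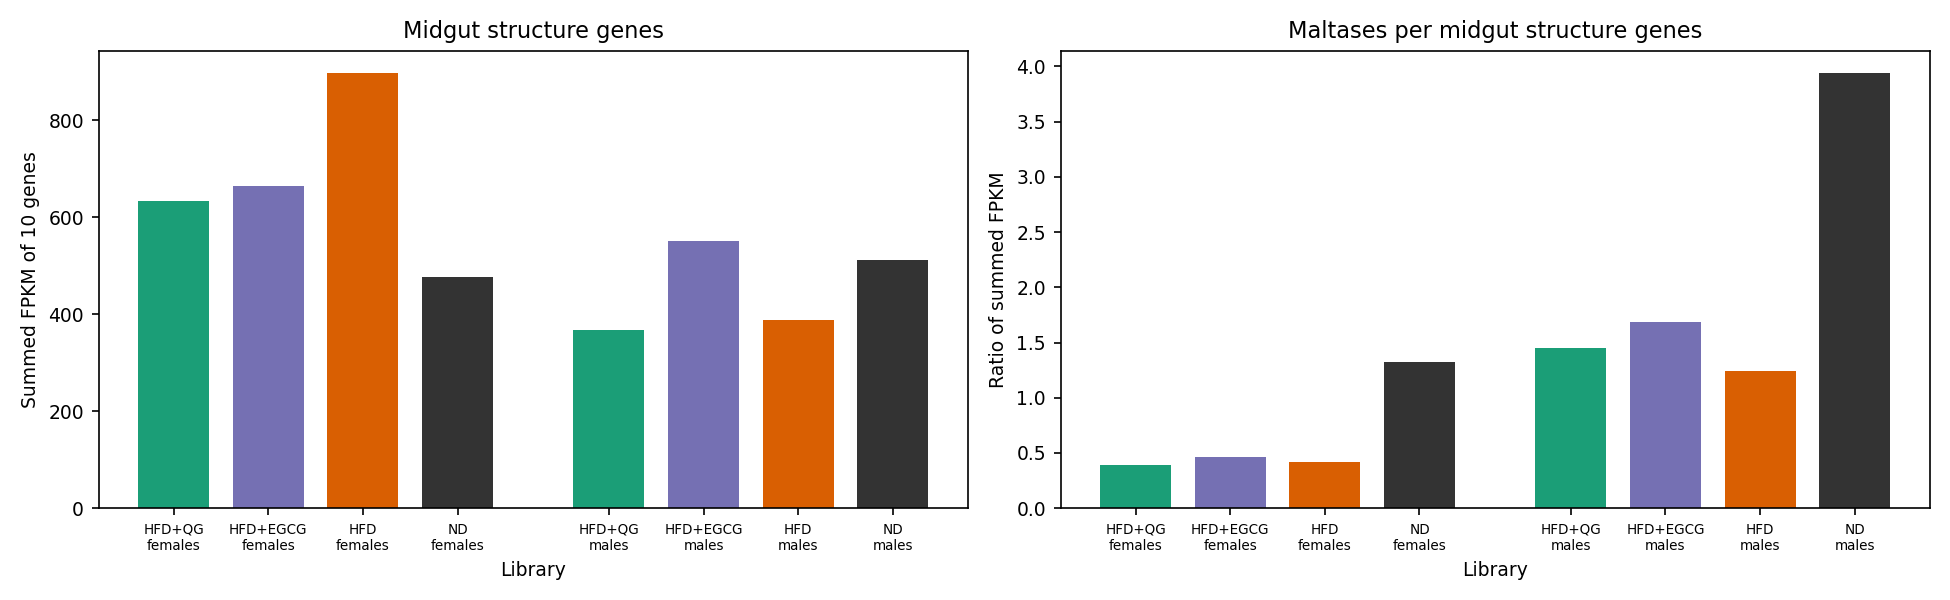
Summed FPKM of 10 midgut structure genes (left) and the ratio of summed maltase FPKM to it (right) in each library, with vertical axes starting at 0. The ratio is 0.391 to 0.460 in high-fat and 1.32 in ND females, and 1.24 to 1.68 in high-fat and 3.94 in ND males.

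In the same comparison 17.1% of all genes passed lower and 17.8% higher, and the counts of this paragraph are to be read against those shares. Of 19 midgut proteases and lipases tested, 5 fell (Jon99Ci, Jon25Bi, Jon25Bii, Jon99Cii and mag) and 1 rose (iotaTry) in the high-fat libraries by the second limma model as the mean of the sexes. The gene iotaTry was at 98 to 107 FPKM in high-fat and 44 in ND females. In males iotaTry was at 37 to 52 FPKM in high-fat and 49 in ND. The sum of the list was 18420 FPKM in HFD+QG, 20564 in HFD+EGCG and 19138 in HFD females, against 29587 in ND females. In males it was 10169, 15167 and 14330 FPKM in those diets, against 13894 in ND. Muscle genes summed to 4221 FPKM in HFD+QG, 4716 in HFD+EGCG and 4701 in HFD females against 1883 in ND females. In males they summed to 5546, 5962 and 6330 FPKM in those diets, against 4548 in ND. As the mean of the sexes 7 of 10 muscle genes rose. In females alone 9 rose, and in males alone 1 (Zasp66), where 22.6% and 5.65% of all genes passed higher. For each of the 7 the sexes differed (limma interaction, adjusted p of 0.0259 or less), where 16.8% of all genes passed higher. Of 2 egg genes tested in both sexes, 1 (Yp3) fell. In males Yp3 was at 12 FPKM in each high-fat library against 9 in ND, and the sexes differed (limma interaction, adjusted p = 0.00478). Of 6 fat body genes 3 fell and 1 rose, with sums of 381 to 388 FPKM in high-fat and 463 in ND females and of 429 to 517 FPKM in high-fat and 642 in ND males. Of 4 Malpighian tubule genes 2 rose and none fell, with sums of 207 to 227 FPKM in high-fat and 107 in ND females and of 127 to 165 FPKM in high-fat and 136 in ND males. Of the 2 that rose, Irk2 was at 35 to 38 FPKM in high-fat and 18 in ND females. In males Irk2 was at 41 to 43 FPKM in high-fat and 46 in ND, and the sexes differed (limma interaction, adjusted p = 0.00174). The other, NHA1, was at 33 to 37 FPKM in high-fat and 32 in ND males. Genes of the male accessory gland and testis summed to 45836 to 55887 FPKM in high-fat and 59735 in ND males, and to at most 1 FPKM in any female library. The part of these tissues in the maltase differences was not tested.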

How the data were processed

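RNA was sequenced from 8 libraries, 4 diets in each of 2 sexes, with a strand-specific SureSelect kit on RNA extracted with Isogen, per the labels' protocols. The deposited values are FPKM of FlyBase transcripts given by the authors as whole numbers, and they were treated as a score because no count of reads can be recovered. The submitters' processing notes name Cuffdiff 2.2.1, TopHat2 2.1.1 and CASAVA 1.8.2. Their parameters, the genome build and any scaling between libraries are not given in the sources used here. Start and end in the tables equalled those of BDGP6.54 (Ensembl release 115) for 17286 of 17431 genes (99.2%).

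The 34475 transcripts of each table were summed to 17655 genes. Genes that reached 1 FPKM in some library were kept, 10254 in females, 13304 in males and 9848 in both. On log2(FPKM + 1), limma 3.58.1 in R 4.3.3 with a trended prior fitted an additive model of diet and sex (3 residual degrees of freedom) and a model of sex, high-fat food and their interaction (4 residual degrees of freedom), with Benjamini-Hochberg adjustment over all genes. Both were tried on simulated data with less spread than most maltases had here and with an equal diet effect in both sexes. The interaction and the sexes apart were not simulated, so the simulation cannot show how well the present fits perform. Within a sex, genes at least 2-fold apart were counted without a test. Alternatives covered the pseudocount, the filter, scaling, transcripts, the prior and each library. All 10 maltases are named, with up to 5 genes of largest change or those passing from each list and the 5 genes most like the maltases. The maltases and the lists were chosen with earlier results of these data known. The text also names midgut markers and neighbours of the clusters chosen after their values were seen. The ratio of maltase to midgut structure FPKM was added after seeing the data. Tables were joined with pandas 2.3.3.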

Additional observations from a re-analysis of the deposited data

Results flagged for a closer look

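Mal-A2, Mal-A3 and Mal-B2 had higher values in the 3 high-fat libraries than in ND in females and lower values in males. For Mal-A3 the female minus male difference of the high-fat effect was 1.78 (log2, interaction term of limma, adjusted p = 0.0261), with high-fat values of 6 to 11 FPKM against 5 in ND females and of 14 to 16 FPKM against 36 in ND males. For Mal-A2 it was 1.24 (adjusted p = 0.0315). For Mal-B2 it was 0.54 and did not pass (adjusted p = 0.127). Of all genes, 16.8% passed higher in the interaction, so 2 of 10 maltases is a share near the background. Without the HFD+EGCG female or the HFD+QG male library 0 maltases passed. Each sex has 1 ND library, so a difference between the sexes in the diet effect and a difference between those libraries cannot be told apart. The egg genes summed to 13321 FPKM or less in the high-fat female libraries against 41562 in the ND female library, and their part in these differences was not tested.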

How the results depend on the processing

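No paired analysis was possible because each diet and sex has 1 library, and the model of sex and high-fat food could not be fitted without an ND library. Of the counts of maltases 2-fold apart, a pseudocount of 5 gave 1 in place of 4 for HFD+QG against HFD in females, 0 in place of 2 for HFD+EGCG against HFD in females, and 5 in place of 8 for HFD+QG against ND in males. Without a filter, 1 maltase in place of 4 passed limma in high-fat against ND in females. In males the count of 2 became 7 at an FPKM of at least 10, and 1 without a filter, with a common FPKM sum or with the highest transcript only. As the mean of the sexes, high-fat against ND gave 4 maltases without a filter and with the highest transcript only, against 6. Other scalings and priors moved no other maltase count by more than 1.5 times. In the additive model, the number of maltases passing for each high-fat diet against ND changed only without the ND male library. That fit rests on 1 ND library, so its counts are not given. Leaving out each library in turn gave 5 to 8 maltases for female against male and 2 to 7 for high-fat against ND. The interaction gave 0 to 2, and high-fat against ND gave 0 to 4 in females and 0 to 2 in males. In HFD against ND, left-out libraries gave -0.99 to 0.26 for Mal-A2, -1.43 to 0.35 for Mal-A3 and -0.53 to 0.012 for Mal-B2, and in female against male -0.50 to 0.019 for Mal-A2. No change of setting reversed a maltase's direction among the limma differences printed for the maltases. With depth unknown and values rounded, differences of low genes such as Mal-B1 in females are the least certain. The cause of these changes was not tested. The alternatives for the sexes apart, for QG and EGCG against ND within a sex and for the lists were chosen after seeing the data.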
